A study of Mus musculus with 12 samples.

Results

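Ribosome occupancy and transcript abundance of 10 extracellular matrix genes were examined in mouse liver with and without Mettl5, the enzyme that methylates an adenosine of 18S rRNA. The genes were Ltbp4, Col14a1, Sdc1, Col1a1, Col1a2, Col3a1, Col4a1, Col4a2, Col6a1 and Dcn, 10 of the 10607 genes in the table of normalized values and of the 55487 genes in the input count file. They were chosen because the ribosome-protected fragments (RPF) of Ltbp4, Col14a1 and Sdc1 had risen in these same knockout libraries, and the other 7 are matrix genes set beside them. The change in RPF is therefore the reason for the choice and is only described here. Adjusted p-values and calls of the 10 genes in RPF are printed, but nothing is read from them. The same holds for the change in translation efficiency (TE, RPF relative to input), which contains the change in RPF. The stated reason for the choice did not include input RNA, which was tested. Input and RPF libraries came from the same livers, so the input tests are not independent of the choice. All 10 genes were in the table, and all 10 passed the filter on low values.

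Livers came from 3 wild-type (WT) mice and 3 METTL5 KO mice, each KO mouse a littermate of the WT mouse with the same number. The KO animals lacked Mettl5 in the whole body: a floxed exon had been deleted by Cre under the CMV promoter, on a background of C57BL/6 and 129S6 backcrossed to C57BL/6. Each liver gave 1 input library and 1 RPF library, 12 in all, and every lysate held cycloheximide, which keeps ribosomes on their transcripts. Sex and age of these 6 mice were not used here. Whole tissue was lysed, so fewer cells of a type and less RNA per cell cannot be told apart.

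The extracellular matrix of liver is a thin scaffold laid down mainly by hepatic stellate cells, portal fibroblasts and endothelial cells, with hepatocytes contributing plasma and cell-surface components. Fibrillar collagens I and III form the cables, the network collagen IV lines the sinusoids and ducts, and collagens VI and XIV and the proteoglycan decorin sit on the fibrils. Ltbp4 encodes a latent TGF-beta binding protein of the elastic fibre microfibrils, and Sdc1 encodes syndecan-1, a heparan sulfate proteoglycan of the hepatocyte surface that takes up lipoprotein remnants.

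Collagen chains wind into a triple helix that needs a glycine in each triplet of residues, and the fibrillar collagen genes hold many exons of 54 bases, each coding for 6 such triplets. In the longest coding sequence of each gene, 21 of 51 coding exons of Col1a1, 24 of 52 of Col1a2 and 24 of 51 of Col3a1 were of this length. The number was 4 of 47 in Col14a1, 3 of 35 in Col6a1, 2 of 52 in Col4a1 and 1 of 47 in Col4a2, and it was 0 in Ltbp4, Sdc1 and Dcn. The first such exon that opens with glycine and keeps it at the head of each triplet is shown for 4 genes, since it carries the repeat that sets the collagens of this group apart from the other 3 genes. Sequences are 5′ to 3′ from the mm10 genome, and capitals mark the glycine codons.
Col1a1 exon 8: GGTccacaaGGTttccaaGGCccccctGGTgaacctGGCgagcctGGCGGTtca
Col1a2 exon 8: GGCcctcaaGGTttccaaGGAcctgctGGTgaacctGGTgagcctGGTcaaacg
Col3a1 exon 6: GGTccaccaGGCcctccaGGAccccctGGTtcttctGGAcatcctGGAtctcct
Col14a1 exon 37: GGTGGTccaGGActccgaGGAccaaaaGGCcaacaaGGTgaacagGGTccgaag
The exons lie at chr11:94939904-94939957 on the plus strand, chr6:4515481-4515534 on the plus strand, chr1:45325360-45325413 on the plus strand and chr15:55467960-55468013 on the plus strand. Proline codons numbered 5 of these 18 codons in the Col1a1 exon, 4 in Col1a2, 8 in Col3a1 and 3 in Col14a1. Over the whole coding sequence, glycine codons made up 26.8 to 28.6% in the collagens I, III and IV, 15.3% in Col6a1 and 10.8% in Col14a1. They made up 10.2% in Ltbp4, 9.97% in Sdc1 and 5.93% in Dcn, against a median of 6.30% over the genes tested. By this share Col14a1 was close to Ltbp4 and Sdc1.

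Input libraries held 8326325 to 11825643 counts, of which 1 gene model, CT010467.1, took 45.8 to 63.8%. The table of normalized values held 2398804 to 5121304 input reads and 4623826 to 9184242 RPF reads per library. Mettl5 itself had 15.7 to 38.5 normalized input reads in WT and at most 9.30 in KO, and 47.8 to 58.4 RPF reads in WT against 5.53 to 9.56 in KO, so every KO library lay below every WT library for the targeted gene, counted over all of its exons. Alb, the hepatocyte albumin gene, was among the most abundant transcripts, with 116146 to 296227 input counts. GC content of the coding sequence moved with the RPF libraries: the Spearman correlation across genes between GC content and a library's deviation from the RPF mean was −0.286, −0.288 and −0.193 in WT 1 to 3 and −0.0193, 0.264 and 0.439 in KO 1 to 3, against −0.101 to 0.132 in the input libraries.

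Wild-type levels, given as normalized reads per kilobase so that genes can be compared, spanned a wide range. In WT RPF, per kilobase of coding sequence, Dcn led with 902 ± 110.4 (SD, n = 3) and Sdc1 followed with 752 ± 99.3, and the mice of these 2 genes overlapped. Far below stood Col14a1 with 68.5 ± 7.30 and Ltbp4 with 68.0 ± 4.21, which overlapped each other, and then Col3a1 with 45.3 ± 5.17, which overlapped neither neighbour. The remaining collagens formed a low group in which each overlapped the next: Col4a2 25.9 ± 9.96, Col1a2 23.2 ± 3.11, Col4a1 22.1 ± 4.83, Col1a1 18.9 ± 5.71 and Col6a1 11.5 ± 1.55 normalized RPF reads per kilobase. In WT input, per kilobase of summed exons, the order differed at the top. Sdc1 had 143 ± 10.8, above Dcn with 51.4 ± 9.07, Ltbp4 with 38.9 ± 3.62 and Col14a1 with 27.5 ± 4.08, each clear of the next. Col4a1 with 14.2 ± 2.01 overlapped Col4a2, next in order, and Col3a1 below them had 10.7 ± 1.17. Levels were lowest for Col6a1 (5.82 ± 1.96), Col1a2 (5.07 ± 1.07) and Col1a1 (4.93 ± 1.43), whose mice overlapped.

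The 3 genes behind the choice had well separated RPF values. Ltbp4 (chromosome 7, 27305136 to 27337692, mm10) had 318, 341 and 360.0 normalized RPF reads in WT 1 to 3 and 552, 658 and 655 in KO 1 to 3, a log2 fold change of 0.87 ± 0.14 (SE). Every KO liver lay above every WT liver, and the WT mice were close together. Col14a1 (chromosome 15, 55307750 to 55520803), a fibril-associated collagen with interrupted triple helices, had 415, 348 and 345 in WT and 631, 596 and 641 in KO, a log2 fold change of 0.76 ± 0.15 (SE). Its KO values were the tightest of the 10 genes relative to their mean. Sdc1 (chromosome 12, 8771323 to 8793715) had 622, 680.0 and 804 in WT and 975, 1138 and 1357 in KO, a log2 fold change of 0.71 ± 0.15 (SE). Litter 3 was highest in both genotypes for Sdc1, and its KO to WT ratio was 1.57, 1.67 and 1.69 in litters 1 to 3. In the limma fit of RPF, the adjusted p-value was 0.0373 for Sdc1 and 0.0517 for Col1a2, on either side of 0.05. The genes were chosen on this contrast, so nothing is read from these values.

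The fibrillar collagen genes were also higher in KO RPF. Col1a1 (chromosome 11, 94936224 to 94953042), which encodes the alpha1 chain of collagen I, had 54.9, 103 and 89.2 normalized RPF reads in WT and 154, 119.9 and 208 in KO, a log2 fold change of 0.97 ± 0.27 (SE). The gap between the highest WT and the lowest KO liver was small, and both belonged to litter 2, where the ratio was 1.16 against 2.81 and 2.33 in litters 1 and 3. Col1a2 (chromosome 6, 4504814 to 4541544), for the alpha2 chain that pairs with it, had 105, 81.1 and 100.1 in WT and 165, 162 and 208 in KO, a log2 fold change of 0.89 ± 0.20 (SE). Col3a1 (chromosome 1, 45311538 to 45349706), for the chain of collagen III, had 186, 225 and 186 in WT and 298, 272 and 347 in KO, a log2 fold change of 0.61 ± 0.17 (SE). For all 3 fibrillar genes the highest KO value was that of KO 3.

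Col4a1 (chromosome 8, 11198423 to 11312826, minus strand) and Col4a2 (chromosome 8, 11312805 to 11449287, plus strand) encode the main chains of basement membrane collagen IV and lie head to head, with 22 bases of overlap at their starts. Col4a1 had 95.0, 99.0 and 139 normalized RPF reads in WT and 155, 161 and 269 in KO, a log2 fold change of 0.78 ± 0.24 (SE). Col4a2 had 87.1, 123 and 188 in WT and 223, 243 and 478 in KO, a log2 fold change of 1.22 ± 0.35 (SE), the highest fold change and the widest error of the 10. Both genes peaked in litter 3 in either genotype, and without KO 3 the log2 fold changes were 0.53 and 0.88. Col6a1 (chromosome 10, 76708792 to 76726168), for a chain of the beaded filament collagen VI, was the least abundant per length, with 34.9, 30.7 and 40.2 in WT and 55.6, 51.0 and 69.8 in KO, a log2 fold change of 0.72 ± 0.29 (SE). Its RPF values rested on 36 to 78 reads per WT library and 73 to 83 per KO library. Dcn (chromosome 10, 97479609 to 97518143), for the small leucine-rich proteoglycan decorin, was the most abundant in RPF per length and had the lowest fold change, with 902, 879.6 and 1093 in WT and 1329.7, 1515 and 1339 in KO, a log2 fold change of 0.55 ± 0.15 (SE).

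**Figure D1:**
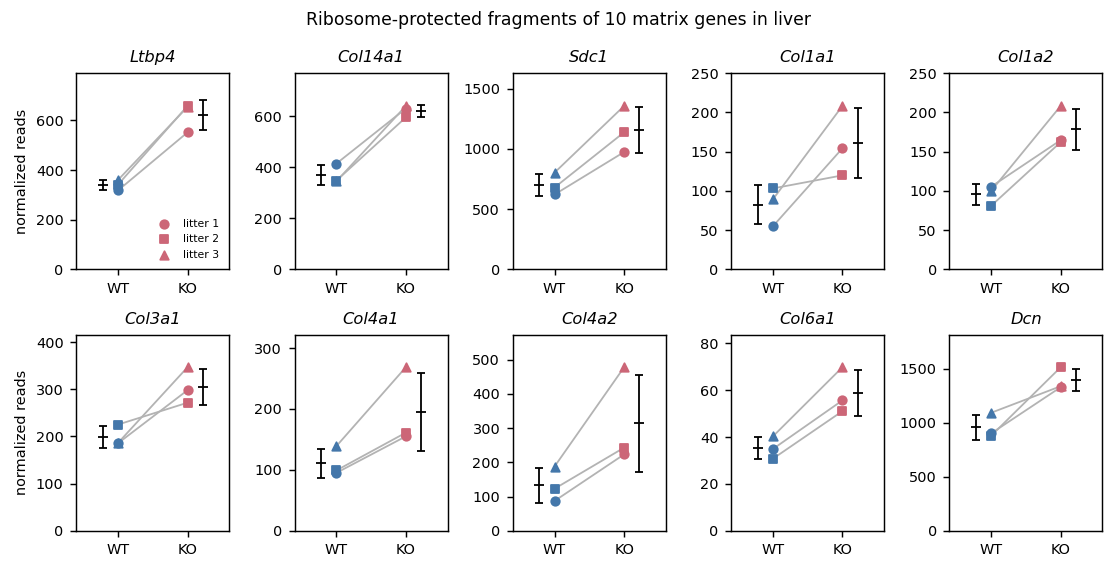
Normalized RPF reads (linear vertical axes, one panel per gene) in 3 WT (blue) and 3 KO (red) livers, with grey lines joining littermates, symbols for litters and black bars for the mean ± SD of 3 mice. All 30 lines rise from WT to KO, with the highest fitted fold for Col4a2 (log2 fold change 1.22) and the lowest single ratio for Col1a1 in litter 2 (1.16).

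In RPF, KO exceeded WT in 30 of 30 littermate comparisons, and for 10 of 10 genes all KO livers lay above all WT livers. Of the 8994 genes tested, 17.4% were higher in KO in all 3 litters and 6.97% had all KO above all WT. Adjusted p-values under 0.05 with higher KO values were found for 3 of the 10 genes, those of the choice, and for 0.167% of the genes tested. In the paired fit with litter as a block, the number was 8 of the 10, and 0.967% of the genes tested. Because the choice used this contrast, nothing is read from these counts. The median log2 fold change was 0.77 over the 10 genes and −0.03 over the genes tested. KO 3 held the highest of the KO values for 8 of the 10 genes, against 34.4% of the genes tested. The RPF sums of 9 markers of hepatic stellate cells, the main matrix-producing cells of liver, were 1131 to 1336 normalized reads in WT and 1509 to 1623 in KO. Of the 8 of these markers tested in RPF, 6 had log2 fold changes above 0 and 0 passed, and Rgs5 and Lrat were lower on average in KO. The part of stellate cell abundance in the values of the matrix genes was not tested.

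Coding GC content lay above the median of the genes tested (52.6%) for 8 of the 10 genes, with Dcn at 47.6% and Col14a1 at 50.7% below it and Col1a1 highest at 63.0%. Across the genes tested, GC content and RPF log2 fold change had a Spearman correlation of 0.456, and GC content and input log2 fold change one of 0.0740. Genes share the same libraries and are not independent, so this is a description. After a smooth trend with GC content was taken out of every library, the RPF log2 fold change was 0.59 for Ltbp4, 0.51 for Sdc1, 0.68 for Col1a1 and 0.97 for Col4a2, each lower than before. Col14a1 and Dcn, the genes of low GC content, went to 0.81 and 0.67, each higher than before. All 10 values stayed above 0, with the lowest at 0.50 for Col3a1, and 1 of the 10 genes, Col14a1, had an adjusted p under 0.05 with a higher KO value, as did 0.0779% of genes in that fit. With the GC trend removed and litter as a block it was 5 of the 10 and 0.312% of genes. These counts come from the contrast of the choice, so nothing is read from them either. The part of base composition in the RPF change was not tested.

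**Figure D2:**
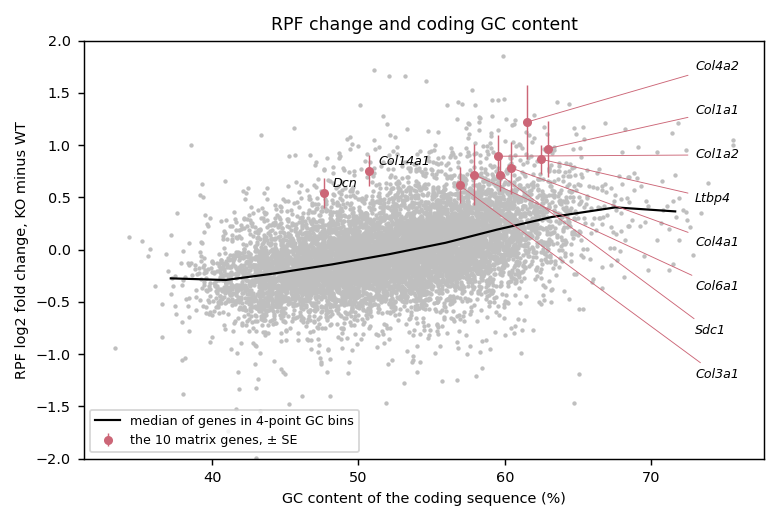
RPF log2 fold change (KO minus WT) against GC content of the longest coding sequence (%), for 8982 genes in grey, of which 8 fall outside the axis, with the median in bins of 4 percentage points as a black line and the 10 matrix genes in red with ± SE. The line climbs with GC content, and all 10 genes lie above it, Dcn and Col14a1 on its left part and the other 8 on its right.

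Whether the transcripts themselves differed was asked in the input RNA. All 10 log2 fold changes were above 0, against 50.0% of all genes tested. By the quasi-likelihood test of edgeR, 0 of 10 genes reached an adjusted p under 0.05, as did 0% of the 10057 genes tested. Of those 10057 genes, 348 had an unadjusted p under 0.05 and DESeq2 called 1. The adjusted p was 0.999 for each of the 10. At an unadjusted p under 0.05, 4 of the 10 were higher in KO (Ltbp4, Col14a1, Col1a1 and Col3a1), against 1.97% of the genes tested. DESeq2 also called 0 of the 10. The same 4 genes had all KO livers above all WT livers, a pattern seen in 3.65% of genes. KO exceeded WT in all 3 litters for 5 of the 10, against 11.1% of genes. Ltbp4 and Col14a1 were among the genes behind the choice, which used RPF of the same livers. These shares are therefore a description. The summed input reads of 10 stellate cell markers were 847 to 1027 in WT and 1075 to 1189.9 in KO, again without overlap.

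Ltbp4 had 229, 276 and 249 normalized input reads in WT 1 to 3 and 328, 287 and 347 in KO 1 to 3, with a log2 fold change of 0.38 ± 0.15 (SE). Col14a1 had 159.6, 208 and 209.8 in WT and 283, 278 and 230.3 in KO, with 0.48 ± 0.16 (SE). Sdc1 stood nearly level, with 497, 577 and 555 in WT, 502, 589 and 644 in KO and a log2 fold change of 0.11 ± 0.14 (SE). In these leading genes the groups did not overlap for Ltbp4 and Col14a1 and overlapped for Sdc1. Col1a1 had 31.2, 42.3 and 23.6 in WT and 46.0, 59.8 and 49.6 in KO, with 0.70 ± 0.28 (SE), the highest input fold change of the 10. It rested on few counts, 17 to 27 per WT library and 31 to 70 per KO library. Col1a2, its partner chain, overlapped, with 47.7, 70.5 and 70.8 in WT, 83.5, 63.8 and 80.0 in KO and 0.29 ± 0.24 (SE). Col3a1 had 110.1, 113 and 91.8 in WT and 130.2, 125 and 182 in KO, with 0.49 ± 0.19 (SE).

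The collagen IV pair was decided by KO 3. Col4a1 had 89.9, 109.7 and 119 normalized input reads in WT and 104, 105 and 181 in KO, and Col4a2 77.0, 89.3 and 91.8 in WT and 81.6, 89.1 and 168 in KO. KO 1 and KO 2 lay within the WT range for both genes. The input log2 fold changes were 0.28 ± 0.23 (SE) and 0.38 ± 0.26 (SE), and without KO 3 they were 0.00 and 0.01. Col6a1 had 29.3, 15.7 and 31.5 in WT and 25.0, 41.2 and 25.6 in KO, from 10 to 24 and 16 to 38 counts, and its log2 fold change of 0.27 ± 0.36 (SE) was smaller than its error. It was 0.01 without WT 2, 0.02 without KO 2 and 0.47 without WT 3. Dcn had 359.5, 282 and 258 in WT and 332, 338 and 297 in KO, with 0.14 ± 0.16 (SE), and its groups overlapped.

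**Figure D3:**
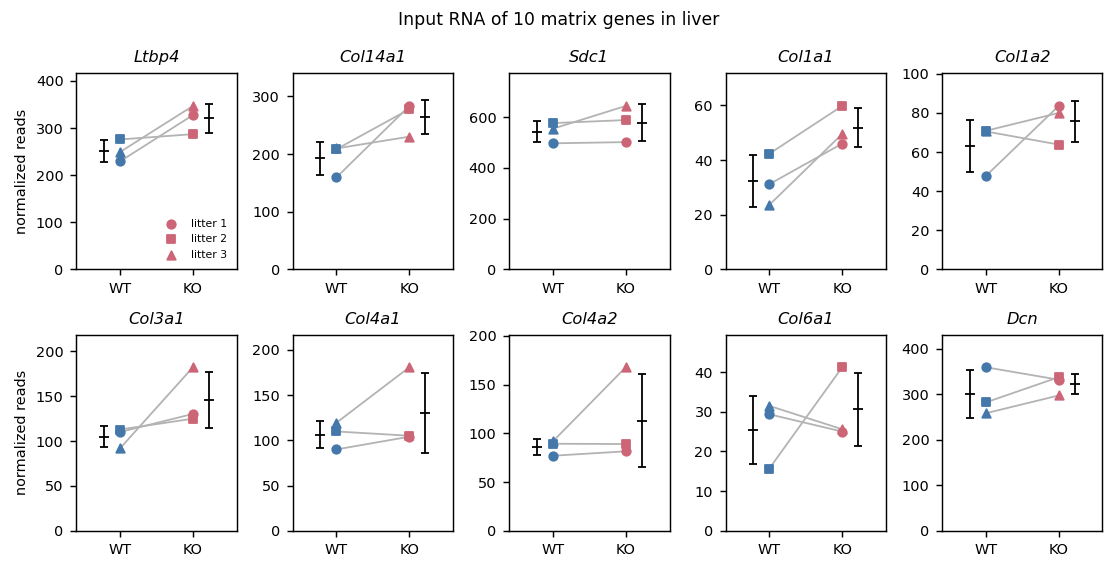
Normalized input reads (linear vertical axes, one panel per gene) in 3 WT (blue) and 3 KO (red) livers, with grey lines joining littermates, symbols for litters and black bars for the mean ± SD of 3 mice. Lines rise in 24 of 30 littermate comparisons. Sdc1 and Dcn are nearly flat, and litter 3 alone rises for Col4a2 by a wide margin.

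Translation efficiency per mouse, the log2 RPF value minus the log2 input value, was higher in all KO than in all WT livers for 4 of the 10 genes, a pattern seen in 6.08% of the genes tested. For Sdc1 it was 0.32, 0.24 and 0.53 in WT 1 to 3 and 0.96, 0.95 and 1.07 in KO 1 to 3, a difference of 0.63 ± 0.21 (SE), beside log2 fold changes of 0.71 in RPF and 0.11 in input. Ltbp4 had 0.47, 0.31 and 0.53 in WT and 0.75, 1.19 and 0.91 in KO, a difference of 0.52 ± 0.20 (SE). For Col14a1 the groups overlapped, with 1.37, 0.74 and 0.72 in WT and 1.15, 1.10 and 1.47 in KO and a difference of 0.30 ± 0.21 (SE). The collagen IV genes were separated: Col4a1 had 0.08, −0.15 and 0.22 in WT and 0.57, 0.61 and 0.57 in KO, and Col4a2 0.18, 0.46 and 1.02 in WT and 1.44, 1.44 and 1.50 in KO. Their TE differences were 0.54 ± 0.35 (SE) and 0.91 ± 0.50 (SE). Those of the fibrillar genes ran from 0.16 ± 0.24 (SE) for Col3a1 and 0.28 ± 0.38 (SE) for Col1a1 to 0.62 ± 0.28 (SE) for Col1a2. Col6a1 had 0.44 ± 0.41 (SE) and Dcn 0.43 ± 0.21 (SE). Leaving out 1 mouse moved the TE difference of Col1a1 from 0.02 (without WT 1) to 0.57 (without KO 2), and that of Col6a1 from 0.21 (without KO 3) to 0.76 (without KO 2).

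All 10 TE differences were above 0, against 48.7% of the genes tested. Their median was 0.48, against −0.01 over the genes tested. An adjusted p under 0.05 for TE was reached by 0 of the 10 and by 0% of the 8994 genes tested in limma, where 423 genes had an unadjusted p under 0.05, and edgeR on whole reads also called 0 genes. These TE values contain the RPF values of the choice and are a description.

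**Figure D4:**
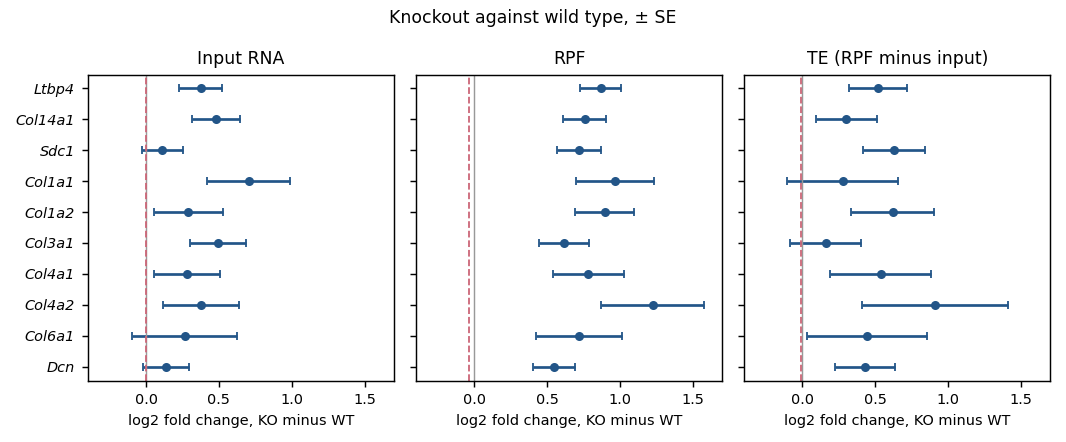
Log2 fold changes (KO minus WT) of the 10 genes in input RNA, RPF and TE, as points with ± SE, with a grey line at 0 and a dashed red line at the median of all genes tested. Points lie right of 0 in each panel, farthest in RPF, where they run from 0.55 for Dcn to 1.22 for Col4a2.

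A wider set of 171 matrix genes outside these 10, in 8 lists, was examined in the same fits, and their RPF and TE values were tested. Of these, 133 were in the table and 103 passed the filter on low values. In RPF, 1 of the 103 rose, 0 fell and 71 had log2 fold changes above 0, against 46.0% of all genes tested, and limma adjusted p-values under 0.05 with a rise were reached by 0.167% and with a fall by 0.322% of the 8994 genes tested. The median RPF log2 fold change of the 103 was 0.19, and the unadjusted p was under 0.05 for 17 of them and for 13.4% of all genes tested. With litter as a block 6 of the 103 passed in RPF, 5 higher and Itgb1 lower in KO, against 0.967% of all genes tested higher and 1.66% lower in that fit. Across all genes tested, RPF log2 fold change rose with coding GC content (Spearman correlation 0.456). With the GC trend removed, 0 of the other matrix genes passed in RPF. The part of base composition in the RPF values of this wider set was not tested. In TE 0 of 103 passed, with 51 above 0, against 48.7% of all genes tested. In input 0 of 99 passed, with 67 above 0, against 50.0% of all genes tested. An unadjusted p under 0.05 in input (edgeR) was reached by 10 of the 99 and by 348 of all 10057 genes tested. DESeq2 on input and edgeR on TE also called 0 of them.

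The gene that rose was Tnxb (chromosome 17, 34670535 to 34719815), which encodes tenascin-X, a glycoprotein that binds fibrillar collagen. It had 59.2, 54.6 and 55.2 normalized RPF reads in WT 1 to 3 and 109.8, 117.4 and 110.9 in KO 1 to 3, a log2 fold change of 0.99 ± 0.18 (SE; adjusted p = 0.012, limma). Its input values were 49.5, 51.7 and 49.8 in WT and 65.8, 63.8 and 56.0 in KO, with a log2 fold change of 0.33 ± 0.23 (SE; adjusted p = 0.999, edgeR). Neither assay's groups overlapped. All KO lay above all WT for 6.97% of the genes tested in RPF and 3.65% in input. Its coding GC content was 60.8%, and its call was lost when the GC trend was removed, and without WT 2, WT 3, KO 2 or KO 3.

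Of the 17 tested genes of basement membrane and adhesive glycoproteins, 16 had RPF log2 fold changes above 0, with a median of 0.30. The most abundant were Vtn, for vitronectin, at 0.03 ± 0.14 (SE; adjusted p = 0.951, limma), and Fn1, for fibronectin, at 0.18 ± 0.13 (SE; adjusted p = 0.581, limma). Among 11 other collagens, 9 lay above 0 and 0 passed, with a median of 0.25. Col18a1, for the endostatin-bearing collagen XVIII that hepatocytes make, had 0.25 ± 0.15 (SE). Of the partner chains of Col6a1, Col6a3 had 0.25 ± 0.36 (SE) and Col6a2 had 0.68 ± 0.34 (SE). Col16a1 at 1.29 ± 0.43 (SE; adjusted p = 0.182, limma) was the 1 of these 11 with an unadjusted p under 0.05. In the list of collagen folding, processing and crosslinking, 7 of 15 lay above 0 and 0 passed, with a median of −0.04. Its abundant members were P4hb, the beta subunit of prolyl 4-hydroxylase and a disulfide isomerase, at −0.11 ± 0.13 (SE), and Ppib, the cyclophilin of the endoplasmic reticulum, at −0.15 ± 0.19. Of these 15, 3 had an unadjusted p under 0.05 (limma), against 13.4% of all genes tested. Serpinh1 at 1.04 ± 0.25 (SE; adjusted p = 0.065, limma) and Adamts2 at 1.44 ± 0.58 (SE) were higher in KO, and P4ha2 at −0.84 ± 0.26 (SE) was lower.

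Microfibril, elastic fibre and TGF-beta genes, the family of Ltbp4, had 9 of 14 above 0 and a median of 0.19. Tgfbi, a TGF-beta induced adhesion protein, had 252 ± 12.9 in WT and 317 ± 41.3 in KO normalized RPF reads, a log2 fold change of 0.32 ± 0.16 (SE; adjusted p = 0.392, limma), and Emilin1, a glycoprotein of elastic fibres, 0.34 ± 0.24 (SE; adjusted p = 0.555, limma). Heparan sulfate proteoglycans and the enzymes of their chains, the family of Sdc1, had 15 of 20 above 0 and a median of 0.20. Of these 20, 2 had an unadjusted p under 0.05 (limma), Hspg2 at 0.51 ± 0.16 (SE) and Ndst2 at 0.74 ± 0.27 (SE). The syndecan genes tested beside Sdc1 had small log2 fold changes. Sdc4 had 1695 ± 78.3 in WT and 1855 ± 12.5 in KO, with 0.13 ± 0.15 (SE; adjusted p = 0.753, limma). All KO livers lay above all WT livers for Sdc4, as for 6.97% of the genes tested. Sdc2 had 877 ± 140.3 in WT and 856 ± 36.8 in KO, with −0.02 ± 0.14 (SE; adjusted p = 0.957, limma). Both proteoglycans tested beside Dcn lay above 0, Bgn (biglycan) at 0.51 ± 0.14 (SE; adjusted p = 0.110, limma) and Prelp at 0.15 ± 0.21 (SE; adjusted p = 0.800, limma). Proteases and their inhibitors had 4 of 10 above 0 and a median of −0.03, with Mmp19 at −0.08 ± 0.21 (SE) and Mmp15 at 0.73 ± 0.40. Matrix receptors had 9 of 14 above 0 and a median of 0.13. The integrin chain genes Itgb1 and Itga1 had −0.47 ± 0.13 (SE; adjusted p = 0.117, limma) and 0.30 ± 0.14 (SE; adjusted p = 0.372, limma). In RPF, all KO livers also lay above all WT livers for Tgfbi, Bgn and Itga1, a pattern seen in 6.97% of the genes tested. The number of the 103 genes with this pattern was not counted. Itgb1 had 1150 ± 128 normalized RPF reads in WT and 828 ± 101 in KO (SD, n = 3). The groups overlapped for Emilin1, Sdc2, Prelp, Mmp19 and Mmp15.

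**Figure D5:**
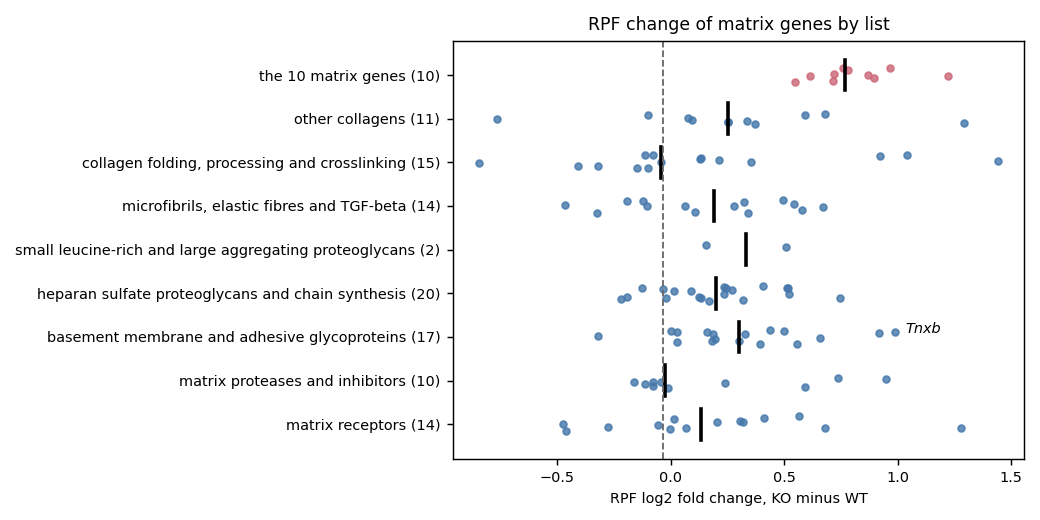
RPF log2 fold changes (KO minus WT) of the 10 genes (red) and of 103 other matrix genes by list (blue), with black ticks at list medians, gene numbers in brackets and a dashed line at the median of all genes tested. The 10 genes, chosen on this measure, all lie right of 0.5, whereas most lists spread across 0, with medians between −0.04 and 0.33.

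The stellate cell markers did not all follow their sum. Reln had 434 ± 46.6 input reads in WT and 584 ± 40.9 in KO (SD, n = 3), Rgs5 108 ± 50.7 and 128 ± 42.4, and Lrat, the retinol esterifying enzyme that defines these cells, 102 ± 44.3 and 86.7 ± 29.1. Reln made up most of the difference in the input sum and in the RPF sum, whereas Lrat was lower on average in KO in both assays. Of the 9 stellate markers tested in input, 0 passed in edgeR and 2 had an unadjusted p under 0.05. Their median log2 fold change was 0.33, beside 0.33 for the 10 matrix genes and −0.0004 over all genes tested. A link between stellate cell abundance and the matrix genes was not tested. In RPF, Reln had 608 ± 45.3 in WT and 831 ± 94.7 in KO, Rgs5 had 52.9 ± 6.91 in WT and 42.1 ± 20.2 in KO, and Lrat lay between 32.4 and 92.4 in the WT livers and between 34.4 and 61.9 in the KO livers. The median RPF log2 fold change of the 8 tested was 0.34.

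Other marker lists overlapped between genotypes in input. Sums of normalized input reads were 1963 to 2285 in WT and 1955 to 2351 in KO for 9 sinusoidal endothelial markers led by Ptprb, Kdr and Stab2, and 1246 to 1829 and 1131 to 1608 for 9 Kupffer cell markers led by Cd5l, Clec4f and Csf1r. They were 84.6 to 108 and 86.4 to 125 for 6 cholangiocyte markers led by Spp1, Sox9 and Epcam, and 29.3 to 40.8 and 38.5 to 52.8 for 8 portal fibroblast and smooth muscle markers led by Acta2, Tagln and Myh11. Mesothelial markers (Upk3b, Msln, Lrrn4 and Wt1) were at or near 0, with 0 of 4 in the table, and 8 hepatocyte markers led by Alb, Apoa1 and Ttr summed to 286600.2 to 377263 in WT and 296178 to 325082 in KO. In these lists 0 of the tested markers passed in input by edgeR or in RPF by limma. Of the 8 portal fibroblast and smooth muscle markers, 0 could be tested in input and 1 in RPF. Of the 4 mesothelial markers, 0 could be tested in either, so nothing is read from these 2 lists. At an unadjusted p under 0.05 there were 0 in input and, in RPF, 2 endothelial and 1 Kupffer cell marker.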

How the data were processed

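The authors deposited whole input counts of read pairs per gene, made per the labels and methods by BBDuk trimming, STAR 2.7.3a alignment to mm10, a filter for unique reads and strand-specific featureCounts over exons (1.6.0 in the labels, another version in the file header). Their second table holds a normalized signal per library, deposited under a length-normalized name. Each value is a whole number of reads divided by 1 factor per library (100% whole in each column, within 0.01 of a read or 1e-06 of the value), with no gene length, and the input reads equal the counts. How the factors were set is not stated. RPF reads were mapped once by RiboToolkit, with duplicates kept. The table omits genes that lack reads in any library. The authors' fold change and p-value columns were not used.

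Input was tested with edgeR 4.0.16 (R 4.3.3; TMM, filterByExpr, robust quasi-likelihood). RPF and TE were fitted with limma 3.58.1 (trend, robust) on log2(value + 1) over genes with means of at least 10 in the 6 input and the 6 RPF columns, with 4 group means. The design assumed normalized values, and a count model was added once whole reads were found. Fold changes on this scale understate those of low genes. Standard errors of edgeR values are the absolute log2 fold change over the square root of F. Adjusted p-values are Benjamini-Hochberg over all genes tested, two-sided, with a threshold of 0.05. Littermates are paired by label. Their deviations from group means correlated by 0.00418, 0.0954 and 0.0620 in input and 0.242, 0.144 and 0.195 in RPF. Fits without a litter term come first, since the study's methods name none. Coding sequences are the longest of each gene in GENCODE for mm10, the build of the files.

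The 10 genes, the matrix lists and the marker lists were chosen with earlier results of these data known. Genes named are the 10, other matrix genes past the threshold, the 2 per list with the highest mean RPF value, and the 3 markers per list with the highest mean input count. In the lists of other collagens, collagen folding and heparan sulfate, genes with an unadjusted p under 0.05 in RPF were also named. Col6a2 was named as a partner chain of Col6a1. Alternatives were DESeq2 1.42.0, RLE factors, pseudocounts of 0.1 and 5, no filter or a stricter one, the litter block, a block of mouse for TE, edgeR on whole reads, removal of a GC spline with 4 degrees of freedom, and leaving out each mouse. Tests were tried on simulated data first.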

Additional observations from a re-analysis of the deposited data

How the results depend on the processing

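In the 386 alternative values of the 10 genes' log2 fold changes in input, RPF and TE, 386 kept their sign. Of these, 100 were input values, and the RPF and TE values contain the contrast of the choice. Some input values kept their sign only narrowly. They were 0.0009 for Col4a1 and 0.01 for Col4a2 without KO 3, and 0.01 for Col6a1 without WT 2. The RPF change of Ltbp4 went from 0.87 to 0.59 and its TE change from 0.52 to 0.27 with the GC trend removed. Both lay outside the ranges reached by leaving out 1 mouse, 0.82 to 0.95 in RPF and 0.40 to 0.62 in TE. Input calls among the 10 genes and among the other matrix genes were 0 under every alternative run, and so were TE calls among them. With the replicate block of litter, 8 of the 10 genes passed in RPF rather than 3 (all but Col3a1 and Col6a1), with 236 rather than 44 genes in all and 6 rather than 1 of the other matrix genes (Tnxb, Serpinh1, Sparc, Ecm1, Mmp15 and, lower in KO, Itgb1). The block gave 2 calls rather than 0 over all genes in input and 1 rather than 0 in TE, and changed no other call. With the GC trend removed, RPF calls were 1 of the 10 genes, 15 over all genes and 0 of the other matrix genes, and with the GC trend removed and the replicate block together they were 5, 68 and 0, with 1 TE call over all genes. EdgeR on whole reads called 2 of the other matrix genes in RPF (Tnxb and Serpinh1). Over all genes, input calls were 1 with DESeq2 and 30 with no count filter. Leaving out each mouse gave 0 to 4 of the 10 genes in RPF (0 without WT 2, KO 2 or KO 3, and 1 without WT 3), 0 to 2 of the other matrix genes, 0 to 226 RPF calls (0 without KO 2, 226 without KO 1, 9 without WT 2, 11 without KO 3, 16 without WT 3 and 28 without WT 1) and 0 to 21 input calls over all genes (21 without KO 2, 5 without KO 3 and 2 without WT 3). These RPF counts of the 10 genes repeat the contrast of the choice.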
